A study of Mus musculus with 4 samples.

Results

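The genes described here are 49 mouse genes of ribosome biogenesis and RNA polymerase I, fixed by name and found in the count tables through their Ensembl identifiers, out of 50686 identifiers in all. All 49 were found, and 48 of them held enough reads to be tested. The series comprises bulk RNA-seq of 4 libraries from cultured cells taken from spleen and lymph node: 1 of stimulated Yap KO cells, 1 of stimulated WT cells, 1 of unstimulated Yap KO cells and 1 of unstimulated WT cells. Titles of the stimulated libraries carry the number 24 without a unit, and the unstimulated titles carry none. The labels used here name neither the stimulus nor the cell type, and they leave out the strain, the number and age of the animals, any sorting, and how and where Yap was deleted. There is no replicate of any group, so genotype and cell source cannot be told apart, and neither can stimulus and time in culture.

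Ribosomes are made in the nucleolus, where RNA polymerase I transcribes the ribosomal DNA into 1 long precursor RNA. Small nucleolar ribonucleoproteins (snoRNPs) guide methylation and pseudouridylation of that precursor, and a long succession of assembly factors, helicases and GTPases cuts and folds it around ribosomal proteins into the small and large subunits. In lymphocytes the nucleolus is small at rest and enlarges as a cell grows before it divides.

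Reads in genes numbered 19935523 in stimulated Yap KO, 20976343 in stimulated WT, 25419974 in unstimulated Yap KO and 22088392 in unstimulated WT cells. Tested members had between 430 and 68441 reads per library, so counting error was small beside most differences reported below. Yap1 itself had 2 reads in stimulated Yap KO and 3 in stimulated WT cells, against 0 in unstimulated Yap KO and 1 in unstimulated WT cells, too few to check the genotype labels. T cell markers were abundant in every library, as were Cd8a and Cd8b1, while Cd4 had at most 3 reads in a library. The summed level of 5 T cell markers was 1307 CPM in stimulated Yap KO and 1394 CPM in stimulated WT cells, against 4058 CPM in unstimulated Yap KO and 3744 CPM in unstimulated WT cells, where CPM is the read count scaled to the size of the library with TMM factors. The 4 B cell markers summed to 20.2 and 9.99 CPM in stimulated Yap KO and WT cells, against 42.5 and 29.0 CPM in unstimulated Yap KO and WT cells. Of 4 myeloid markers the sum was 20.6 and 14.5 CPM in stimulated Yap KO and WT cells, against 27.2 and 22.1 CPM in unstimulated Yap KO and WT cells. Within that list Lyz2 was nearly absent after stimulation, with 0.0518 and 0.294 CPM in stimulated Yap KO and WT cells against 9.16 and 5.93 CPM in unstimulated Yap KO and WT cells, and Itgam and Adgre1 had 0 reads in both stimulated libraries. The 2 NK cell markers summed to 0.0518 and 0.0490 CPM in stimulated Yap KO and WT cells, against 3.46 and 2.27 CPM in unstimulated Yap KO and WT cells. The 2 erythroid markers summed to 0.0518 and 0.245 CPM in stimulated Yap KO and WT cells, against 1.69 and 2.71 CPM in unstimulated Yap KO and WT cells. All these lists were lower in the stimulated libraries of each genotype, and their part in the results was not tested. In bulk RNA, fewer cells of a type and less RNA per cell cannot be told apart.

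The first comparison asked which members changed between the states in both genotypes. Almost the whole group rose: 47 of 48 tested members were higher in the stimulated libraries and none was lower (edgeR quasi-likelihood test with genotype as an additive term, Benjamini-Hochberg adjusted over 15394 genes at 0.05). Over all tested genes, 32.1% were called higher and 32.5% lower, 64.6% in all. The members' median log2 ratio, stimulated over unstimulated, was 1.37 in Yap KO and 1.37 in WT cells, while the medians over all tested genes were -0.05 and -0.02. Together the 49 genes took 1.88% of the reads in genes in stimulated Yap KO and 1.69% in stimulated WT cells, against 0.680% in unstimulated Yap KO and 0.616% in unstimulated WT cells. In 47 members both stimulated libraries stood above both unstimulated libraries, as they did in 40.4% of all tested genes, and in no member did both stand below, as they did in 41.8% of all tested genes. At least a 2-fold rise in each genotype was seen in 34 members. A rise of at least 2-fold in each genotype was met by 19.4% of all tested genes. Each state holds 1 library of each genotype, so the p-values do not cover the spread between cultures. They rest on how closely Yap KO and WT cells followed each other, mostly as a variance shared over genes. Each gene had 1 residual degree of freedom of its own, beside a median of 8.45 borrowed from all genes.

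**Figure D1:**
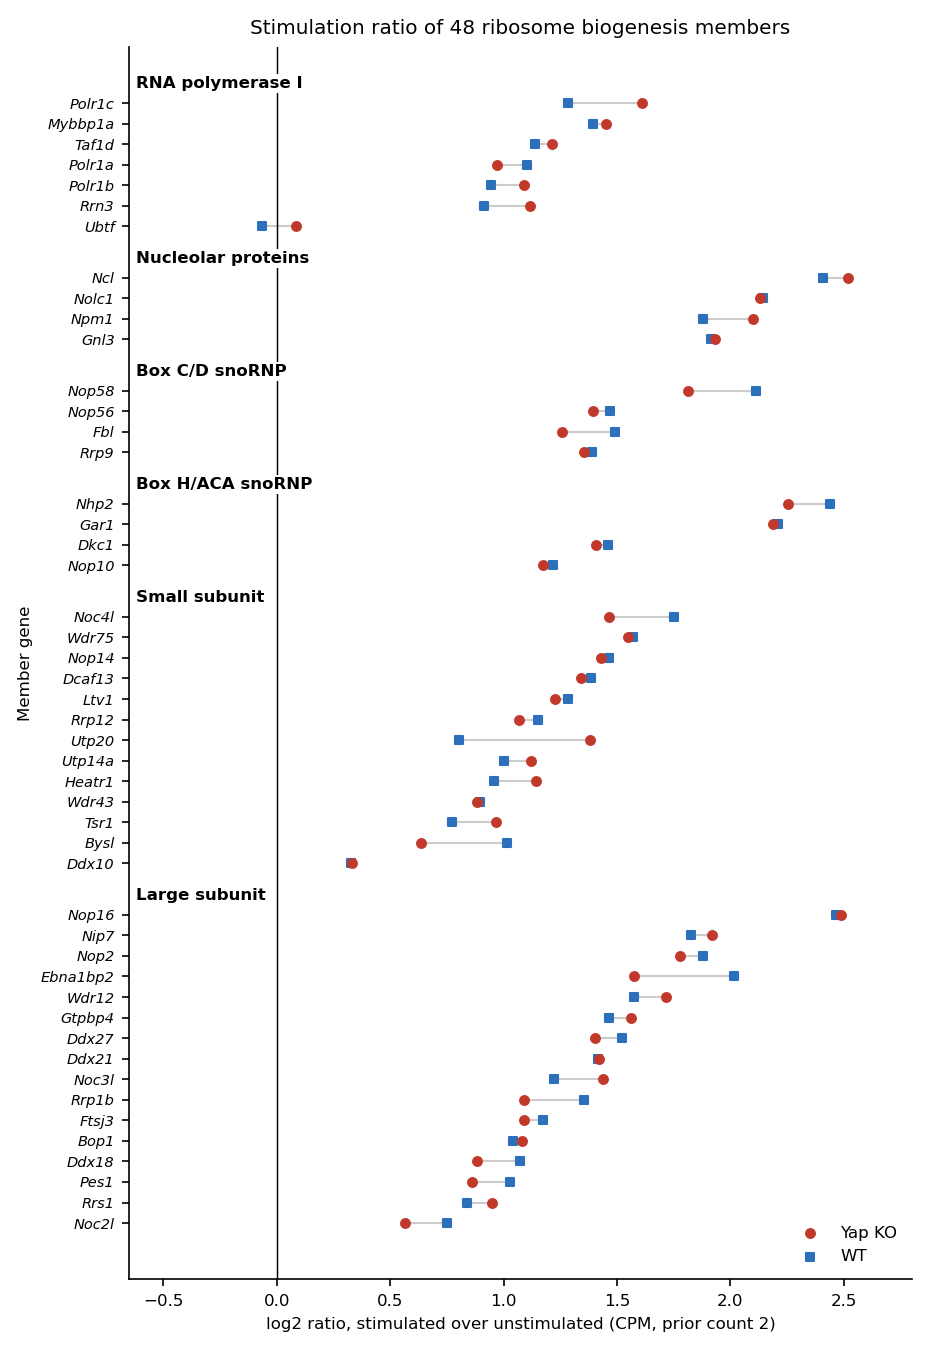
Log2 ratio of the stimulated over the unstimulated library (horizontal axis) for each tested member (rows, grouped by role), with Yap KO as red circles and WT as blue squares. Every member but Ubtf lies to the right of 0 in both genotypes, and the farthest are Nop16, Ncl, Nhp2, Gar1 and Nolc1.

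Of the 7 genes for RNA polymerase I and its factors, 6 rose and 1, Ubtf, did not. Polr1a, the largest catalytic subunit, had 210 CPM in stimulated Yap KO and 204 CPM in stimulated WT cells, against 107 CPM in unstimulated Yap KO and 94.7 CPM in unstimulated WT cells. Polr1b, the second-largest subunit, had 228 and 172 CPM in stimulated Yap KO and WT cells, against 107 and 89.1 CPM in unstimulated Yap KO and WT cells. Polr1c, a subunit that RNA polymerases I and III share, had 99.7 and 81.3 CPM in stimulated Yap KO and WT cells, against 32.6 and 33.3 CPM in unstimulated Yap KO and WT cells. The states did not overlap for any of these subunits, and the log2 coefficients were 1.04 ± 0.12 for Polr1a, 1.02 ± 0.12 for Polr1b and 1.45 ± 0.14 for Polr1c (SE of the additive fit, 4 libraries).

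Factors that bring the polymerase to the ribosomal DNA were divided. Rrn3, which links the polymerase to its promoter complex, rose by 1.02 ± 0.13, with 186 and 160 CPM in stimulated Yap KO and WT cells against 85.8 and 85.1 CPM in unstimulated Yap KO and WT cells. Taf1d, a subunit of the promoter selectivity factor SL1, rose by 1.18 ± 0.12. Ubtf, the HMG-box protein UBF that binds along active ribosomal DNA, stood at 149 CPM in stimulated Yap KO and 115 CPM in stimulated WT cells, against 140 CPM in unstimulated Yap KO and 120 CPM in unstimulated WT cells. Its values in the states overlap, and its coefficient was 0.01 ± 0.12 (adjusted p = 0.938). Ubtf lies on chromosome 11 from 102304560 to 102319742 on the minus strand (GRCm38, ENSMUSG00000020923). Mybbp1a, a nucleolar protein that binds the polymerase I machinery and takes part in processing of the precursor, had the highest read level of the 7, with 1056 and 865 CPM in stimulated Yap KO and WT cells against 385 and 329 CPM in unstimulated Yap KO and WT cells.

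The abundant nucleolar proteins rose by the largest median, 2.06 on the log2 scale over 4 genes. Ncl, nucleolin, an RNA-binding protein of the dense nucleolar compartment, had 3545 CPM in stimulated Yap KO and 3235 CPM in stimulated WT cells, against 619 CPM in unstimulated Yap KO and 610 CPM in unstimulated WT cells. That is a coefficient of 2.46 ± 0.13 (adjusted p = 2.24e-07), or 5.51-fold, and the 2 genotypes lay close together within each state. Npm1, nucleophosmin, a histone and ribosome chaperone of the outer nucleolus, had 2286 and 1950 CPM in stimulated Yap KO and WT cells, against 534 and 530 CPM in unstimulated Yap KO and WT cells. Nolc1, which escorts snoRNPs, had 581 and 496 CPM in stimulated Yap KO and WT cells, against 133 and 112 CPM in unstimulated Yap KO and WT cells. Gnl3, the GTPase nucleostemin, rose by 1.92 ± 0.13. Ncl lies on chromosome 1 from 86344719 to 86359400 and Npm1 on chromosome 11 from 33152287 to 33163206, both on the minus strand (GRCm38). Of the 31-base words in Npm1 transcripts, 29.4% also occur in transcripts of other genes. Reads aligned in more than 1 place were not counted to genes, so the level of Npm1 is uncertain. In all, 13 members share 10% or more of these words, among them Tsr1 (33.2%), Nop56 (22.4%) and Fbl (21.8%). No exon of Fbl or Npm1 overlaps another gene, so the same limit holds for Fbl. Words shared with a gene that overlaps a member need not make reads align in more than 1 place. Exons of other genes lie opposite 32.3% of the exon bases of Tsr1 and opposite parts of Noc2l, Utp14a and Bysl. Taf1d and Nop56 overlap other genes on the same strand. The part of such overlap in these shares was not tested.

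**Figure D2:**
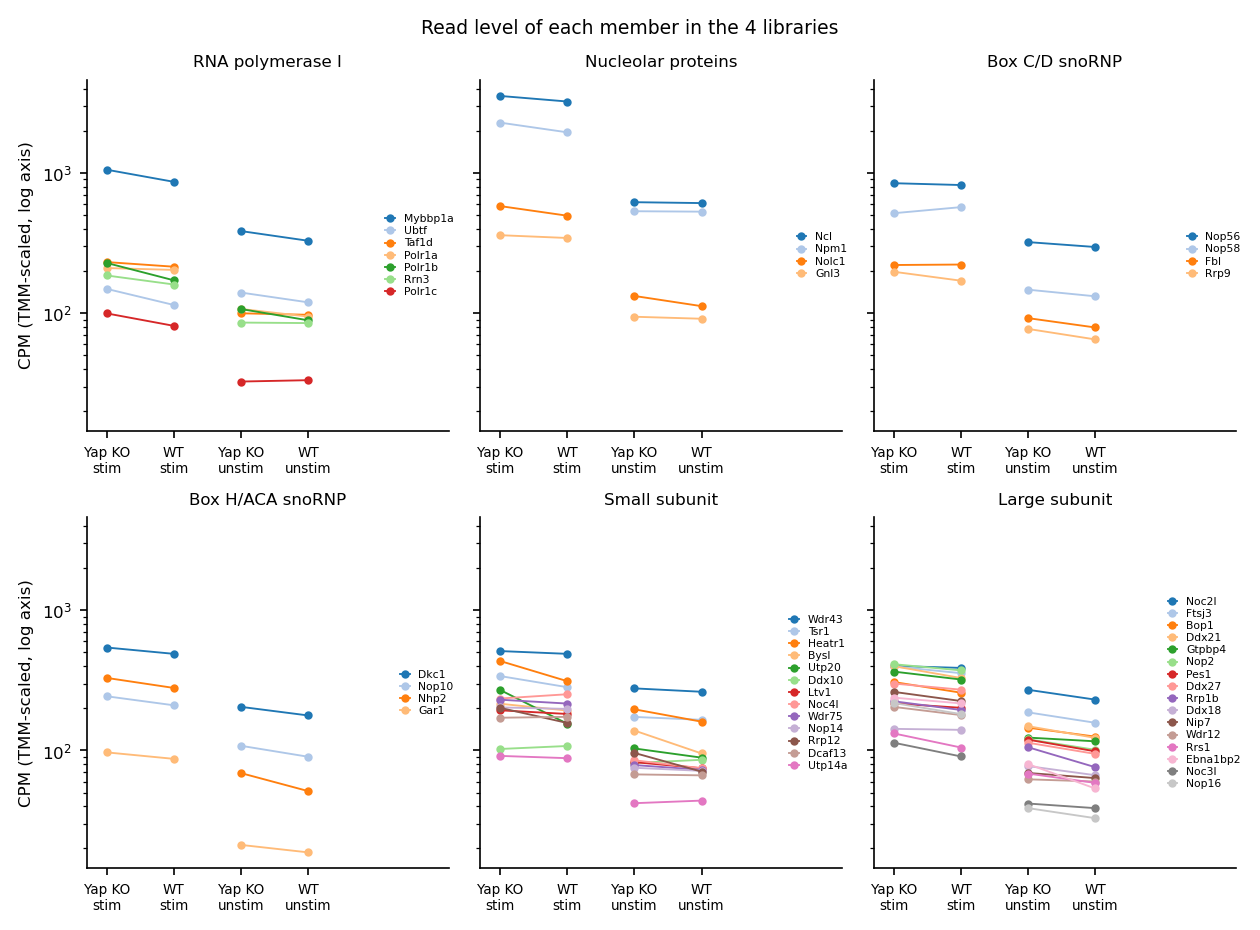
Level of each tested member in CPM (vertical log axis) in stimulated Yap KO, stimulated WT, unstimulated Yap KO and unstimulated WT cells (horizontal axis), 1 panel per role and 1 point per library, with lines joining the genotypes of a state. The stimulated pairs stand above the unstimulated pairs for all genes but Ubtf, and Ncl reaches 3545 CPM at the top.

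Both kinds of snoRNP rose, each with 4 of 4 genes. Box C/D snoRNPs methylate the ribose of the precursor RNA, and their median coefficient was 1.40. Fbl, the methyltransferase fibrillarin, had 221 and 222 CPM in stimulated Yap KO and WT cells, against 92.3 and 79.2 CPM in unstimulated Yap KO and WT cells. Its core partner Nop56 had 846 and 821 CPM in stimulated Yap KO and WT cells, against 322 and 297 CPM in unstimulated Yap KO and WT cells. Nop58, the paralog of Nop56 in the same particle, rose furthest of the 4, by 1.96 ± 0.14. It had 517 and 571 CPM in stimulated Yap KO and WT cells, against 147 and 132 CPM in unstimulated Yap KO and WT cells. Rrp9, which binds the U3 snoRNA, rose by 1.37 ± 0.12.

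Box H/ACA snoRNPs convert uridine to pseudouridine, and their median coefficient was 1.82. Nhp2 led them at 2.35 ± 0.13 (adjusted p = 3.38e-07), with 329 and 279 CPM in stimulated Yap KO and WT cells against 69.0 and 51.4 CPM in unstimulated Yap KO and WT cells. Gar1 followed at 2.20 ± 0.14, with 96.9 and 87.1 CPM in stimulated Yap KO and WT cells against 21.2 and 18.8 CPM in unstimulated Yap KO and WT cells. Dkc1, the pseudouridine synthase dyskerin, and Nop10, the smallest core protein, rose by 1.43 ± 0.12 and 1.20 ± 0.12. The coefficients of Nhp2 and Gar1 thus stood above those of Dkc1 and Nop10 of the same particle, a difference that was not tested.

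Within 8 of the members lie snoRNA genes on the same strand, 29 in all, among them 8 in Taf1d, 5 in Nop56, 4 in Nop58 and 3 each in Ncl, Gnl3 and Wdr43. A box C/D snoRNA starts with a C box and ends with a D box, which Fbl, Nop56 and Nop58 recognise. The 2 most read of these RNAs are shown to make that link visible, with the C box and D box found by letter match in capitals, from GENCODE M21 transcripts on GRCm38.
Snord69 (in Gnl3, chr14:31014287-31014366, minus strand): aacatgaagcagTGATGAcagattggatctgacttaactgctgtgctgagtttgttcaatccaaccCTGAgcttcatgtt
Snord110 (in Nop56, chr2:130275506-130275573, plus strand): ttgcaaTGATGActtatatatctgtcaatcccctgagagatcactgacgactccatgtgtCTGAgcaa

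Reads on these 29 genes summed to 178 in stimulated Yap KO and 232 in stimulated WT cells, against 203 in unstimulated Yap KO and 209 in unstimulated WT cells. Snord69 had 44 and 60 reads in stimulated Yap KO and WT cells, against 56 and 54 in unstimulated Yap KO and WT cells. Snord110 had 36 and 33 reads in stimulated Yap KO and WT cells, against 60 and 37 in unstimulated Yap KO and WT cells. No library had more than 60 reads on any 1 of these genes, and 15 of the 29 had none in any library. Changes in snoRNA could thus not be judged from these counts. Where a snoRNA lies over an annotated exon of its host, reads there belong to both genes and are set aside as ambiguous, which touches 10.1% of the exon bases of Taf1d and a smaller share of those of Nop56.

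All 13 genes of the small subunit rose, with a median coefficient of 1.09. The first proteins to join the precursor were among them. Heatr1, Wdr43 and Wdr75 belong to the complex that binds the nascent 5′ end, and they rose by 1.05 ± 0.13, 0.89 ± 0.12 and 1.56 ± 0.12. Noc4l, which works with Nop14, rose furthest at 1.61 ± 0.13, with 235 and 252 CPM in stimulated Yap KO and WT cells against 85.1 and 74.7 CPM in unstimulated Yap KO and WT cells. Nop14 itself rose by 1.45 ± 0.12, Dcaf13 by 1.36 ± 0.12, and Utp14a, whose yeast counterpart activates a helicase, by 1.06 ± 0.13. Utp20, a very large scaffold protein, had 270 and 155 CPM in stimulated Yap KO and WT cells, against 103 and 88.9 CPM in unstimulated Yap KO and WT cells. The rise of Utp20 was the least alike in the genotypes of any member, at log2 ratios of 1.38 in Yap KO and 0.80 in WT cells.

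Late factors of the small subunit rose as well. Ltv1, Tsr1, Bysl and Rrp12 act on pre-40S particles on their way to the cytoplasm, and their coefficients were 1.26 ± 0.12, 0.87 ± 0.13, 0.82 ± 0.14 and 1.11 ± 0.12. Bysl had 215 and 193 CPM in stimulated Yap KO and WT cells, against 139 and 95.2 CPM in unstimulated Yap KO and WT cells. Tsr1 had 339 and 283 CPM in stimulated Yap KO and WT cells, against 173 and 165 CPM in unstimulated Yap KO and WT cells. Both genes kept the states apart. For Tsr1, 32.3% of the exon bases lie opposite exons of another gene, and reads of the 2 strands could not be told apart here. Ddx10, a helicase needed for small subunit processing in yeast, had 103 and 108 CPM in stimulated Yap KO and WT cells, against 81.5 and 85.8 CPM in unstimulated Yap KO and WT cells. Its coefficient of 0.33 ± 0.12 was the smallest that passed (adjusted p = 0.0394), and the call ended when libraries were scaled to total reads only (adjusted p = 0.106), with upper-quartile factors (0.15), with no filter on low counts (0.057), with the DESeq2 test (0.0811), without genes opposite another gene (0.0567) and when any 1 library was left out (0.101 to 0.188, state as the only term).

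All 16 tested genes of the large subunit rose, with a median coefficient of 1.38. Nop16 had the largest coefficient of any member, 2.48 ± 0.13 (adjusted p = 2.16e-07), or 5.57-fold. It had 218 CPM in stimulated Yap KO and 182 CPM in stimulated WT cells, against 38.8 CPM in unstimulated Yap KO and 32.9 CPM in unstimulated WT cells. Nop16 encodes a nucleolar protein of early pre-60S particles and lies on chromosome 13 from 54584185 to 54590090 on the minus strand (GRCm38). Nip7 at 1.87 ± 0.13, the RNA methyltransferase gene Nop2 at 1.83 ± 0.13 and Ebna1bp2 at 1.79 ± 0.15 followed. Ebna1bp2 had 238 and 217 CPM in stimulated Yap KO and WT cells, against 80.0 and 53.6 CPM in unstimulated Yap KO and WT cells. The unstimulated libraries thus stood further apart for Ebna1bp2 than the stimulated ones.

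Proteins of 1 complex had coefficients of different size, and these differences were not tested. Pes1, Bop1 and Wdr12 form a trimer needed for maturation of the large subunit RNA, and they rose by 0.94 ± 0.13, 1.06 ± 0.12 and 1.64 ± 0.13. Other genes share 34.9% of the 31-base words of Pes1, so its level is uncertain. Wdr12 had 204 and 179 CPM in stimulated Yap KO and WT cells, against 62.3 and 60.0 CPM in unstimulated Yap KO and WT cells, while Bop1 had 308 and 258 CPM in stimulated Yap KO and WT cells, against 145 and 126 CPM in unstimulated Yap KO and WT cells. Noc2l and Noc3l, whose yeast counterparts form a heterodimer in pre-60S particles, rose by 0.66 ± 0.13 and 1.33 ± 0.13. Noc2l had 401 and 388 CPM in stimulated Yap KO and WT cells, against 271 and 231 CPM in unstimulated Yap KO and WT cells, and 20.9% of its exon bases lie opposite another gene. The GTPase gene Gtpbp4 rose by 1.51 ± 0.13, the methyltransferase gene Ftsj3 by 1.13 ± 0.12, Rrp1b by 1.22 ± 0.13 and Rrs1, which helps place the 5S particle, by 0.89 ± 0.13. Among the helicases, Ddx27 rose by 1.46 ± 0.13, Ddx21 by 1.42 ± 0.12 and Ddx18 by 0.98 ± 0.13. Other genes share 65.5% of the 31-base words of Ddx18, the largest share of any member, so its level is uncertain.

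Wdr74, a WD-repeat protein of the nucleolus on chromosome 19 (ENSMUSG00000042729), was the member left untested. It had 7 and 4 reads in stimulated Yap KO and WT cells, against 2 and 0 reads in unstimulated Yap KO and WT cells. It was set aside by the filter on low counts. How the authors' annotation covers this locus is not known, so these counts are not read as a level of expression.

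Per exon length, the members spanned a wide range of levels. TPM, reads per kilobase of annotated exon scaled to the same total in each library, had a median over the 48 members of 180 in stimulated Yap KO and 156 in stimulated WT cells, against 75.4 in unstimulated Yap KO and 62.4 in unstimulated WT cells. Npm1 was at the top with 2432 and 2022 TPM in stimulated Yap KO and WT cells, against 591 and 581 TPM in unstimulated Yap KO and WT cells. Ncl was next in the stimulated cells with 986 and 878 TPM in Yap KO and WT, and then Nhp2 with 814 and 673 TPM. In the unstimulated cells the order below Npm1 differed. Nop10 had 287 and 238 TPM in Yap KO and WT, Noc2l 279 and 235 TPM and Nop56 231 and 212 TPM. Ncl stood below these at 179 and 175 TPM. This order depends on the exon length used: 10188 bases for Ncl against 1109 for Nop10, 2867 for Noc2l and 4099 for Nop56. Which transcripts the reads came from is not known, so the rank of Ncl is uncertain in both states. Across the 48 members, the unstimulated level and the stimulation coefficient were nearly unrelated in rank (Spearman rho = -0.07, a description over genes that share the same libraries).

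**Figure D3:**
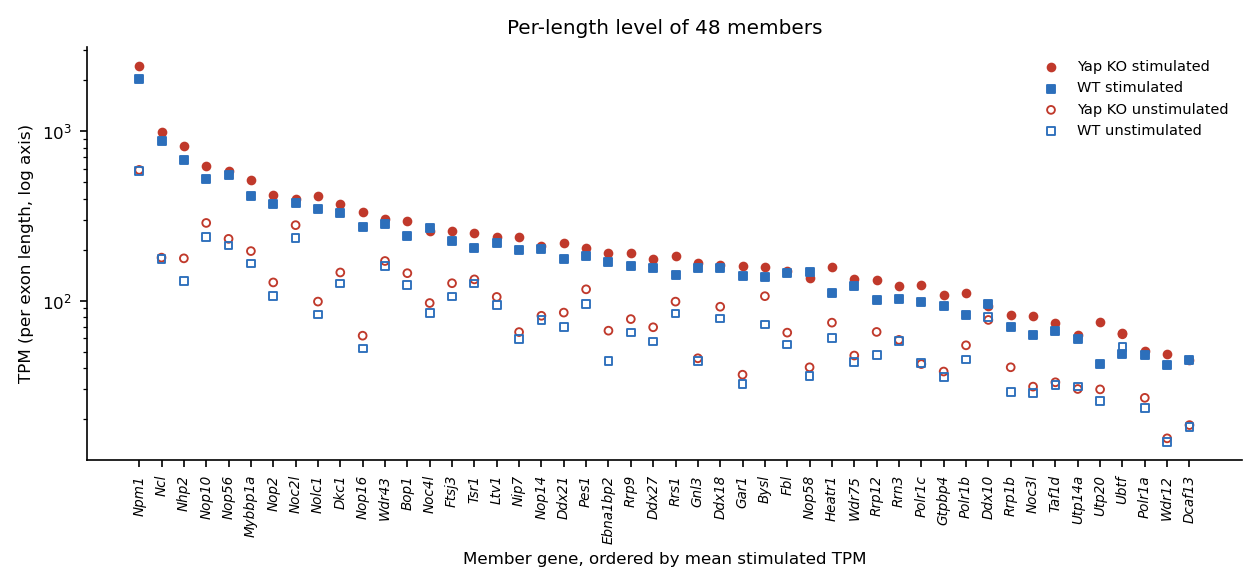
TPM (vertical log axis) of each tested member, ordered by its mean in the stimulated libraries, with filled symbols for stimulated and open symbols for unstimulated cells, Yap KO as red circles and WT as blue squares. Npm1 stands highest in all 4 libraries, and filled and open symbols lie closest at Ubtf and Ddx10.

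Promoter letters were read because the members rose together and because many ribosome biogenesis genes are known targets of MYC, a transcription factor that binds the E-box CACGTG. Of the 49 members, 43 matched a promoter in the RefSeq table (GRCm38.p6), which holds 250 bases before and 50 after each start. The E-box, which reads the same on both strands, was present in 8 of them, 18.6%, and in 8.09% of all 27025 genes of the table. That table also holds genes that were not tested here, and the share among tested genes was not counted. Whether MYC had a part in the rise was not tested. Windows of up to 30 bases around each of the 9 sites are printed in gene orientation with the E-box in capitals. The number gives its first base relative to the start.
Nop2 (chr6:125131811-125131840, -60): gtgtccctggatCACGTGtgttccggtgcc
Mybbp1a (chr11:72441355-72441376, 41): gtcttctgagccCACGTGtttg
Ltv1 (chr10:13193092-13193121, 29): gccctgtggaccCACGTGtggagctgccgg
Utp20 (chr10:88826765-88826789, 38): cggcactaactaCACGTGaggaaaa
Rrn3 (chr16:13780472-13780501, -215): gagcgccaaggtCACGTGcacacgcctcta
Rrn3 (chr16:13780639-13780668, -48): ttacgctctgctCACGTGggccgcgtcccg
Pes1 (chr11:3963965-3963994, 3): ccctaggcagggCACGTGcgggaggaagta
Wdr43 (chr17:71616220-71616249, 18): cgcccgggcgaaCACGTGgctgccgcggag
Tsr1 (chr11:74898092-74898121, 25): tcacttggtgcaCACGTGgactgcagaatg

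Of the 9 sites, 6 lay within the first 50 bases after the RefSeq start, and only Rrn3 held a pair. For genes such as Wdr43 and Mybbp1a, the GENCODE M21 start lies elsewhere than the RefSeq start. The 8 genes with an E-box had a median coefficient of 1.05, from 0.87 in Tsr1 to 1.83 in Nop2, and the 34 tested members without one in this window had a median of 1.43. No test was run on this division. Ltv1 and Utp20 lie on the minus strand and the other 6 genes on the plus strand.

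Members were next compared between the genotypes, with 1 genotype term fitted over both states. Ratios within a state compare 1 library with 1 library and were not tested. No member was called in either direction (edgeR quasi-likelihood test, state as an additive term), where 0.695% of all tested genes were called higher and 0.487% lower in Yap KO, 1.18% in all. At an unadjusted p under 0.05, 10 of the 48 members were higher in Yap KO, beside 1546 of the 15394 tested genes in either direction, and DESeq2 called none after adjustment. The differences were small and mostly of 1 sign: 41 members were higher in Yap KO in both states and 1, Ddx10, was lower in both, beside 30.3% and 26.0% of all tested genes. Median log2 ratios of the members were 0.16 between the stimulated libraries and 0.21 between the unstimulated ones, and over all tested genes -0.00 and 0.03. B cell marker RNA was also higher in the Yap KO libraries (20.2 CPM in stimulated Yap KO against 9.99 CPM in stimulated WT cells, and 42.5 CPM in unstimulated Yap KO against 29.0 CPM in unstimulated WT cells). Its part in the result was not tested.

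Utp20 stood furthest from equality. Between the stimulated libraries its log2 ratio, Yap KO over WT, was 0.80 (95% interval 0.73 to 0.86), and between the unstimulated ones 0.22 (0.13 to 0.30). These intervals are exact for the 2 counts and cover counting error only. The additive coefficient of Utp20 was 0.51 with an adjusted p of 0.225, whereas without a filter on low counts it was called (0.53, adjusted p = 0.00731). Rrp12 came next by unadjusted p, with ratios of 0.36 (0.29 to 0.43) stimulated and 0.44 (0.35 to 0.53) unstimulated and an adjusted p of 0.230. Heatr1 had 0.48 (0.43 to 0.53) stimulated and 0.29 (0.23 to 0.35) unstimulated, with an adjusted p of 0.271.

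Of the 7 genes of RNA polymerase I and its factors, 6 were higher in Yap KO in both states, and Polr1c was higher in stimulated cells only (0.29 stimulated and -0.03 unstimulated). Polr1b had 0.41 (0.35 to 0.48) stimulated and 0.27 (0.18 to 0.35) unstimulated, and Ubtf, the gene that did not move with the state, 0.38 (0.30 to 0.46) and 0.23 (0.16 to 0.30). Their adjusted p-values were 0.357 and 0.429. Unstimulated cells differed most in Ebna1bp2, at 0.58 (0.48 to 0.68), Bysl, at 0.54 (0.47 to 0.62), and Rrp1b, at 0.47 (0.38 to 0.56). No member was 2-fold apart in both states, where 0.955% of tested genes were at least 2-fold higher and 0.883% lower in Yap KO. None was 1.5-fold apart in both states either, where 1.81% of tested genes were higher and 1.79% lower.

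**Figure D4:**
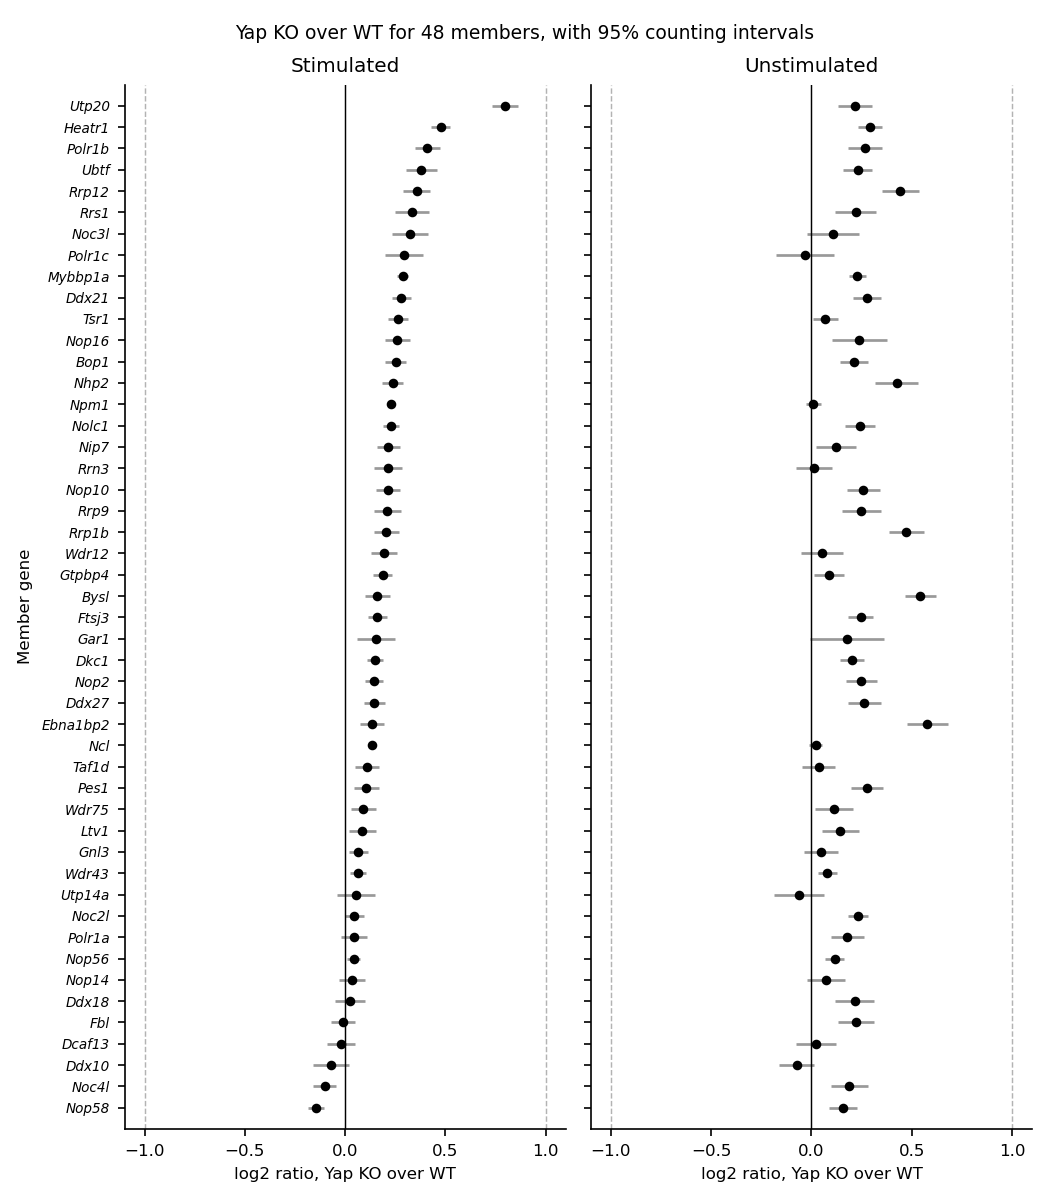
Log2 ratio of Yap KO over WT (horizontal axis) for each tested member, in stimulated cells on the left and unstimulated cells on the right, with exact 95% counting intervals as grey bars and dashed lines at a 2-fold difference. Utp20 reaches 0.80 in stimulated cells, and no point passes a dashed line.

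Whether stimulation acted alike in the 2 genotypes could only be described, since the interaction leaves no residual degree of freedom. Stimulation ratios of Yap KO and WT cells followed each other across the 48 members (Pearson r = 0.94 and Spearman rho = 0.91 across genes, which are not independent and share libraries). None differed by 2-fold, while 3.03% of tested genes had a ratio at least 2-fold higher and 4.70% at least 2-fold lower in Yap KO. At 1.5-fold these shares were 5.89% and 9.02%, and no member passed, but Utp20 lay just under that limit and passed it under each of the 3 other scalings (0.59 to 0.62 on the log2 scale, tried after the values were seen). The median difference, Yap KO minus WT, was -0.02 on the log2 scale. Utp20 had the largest at 0.58 (95% counting interval 0.48 to 0.69), then Polr1c at 0.33 (0.16 to 0.50). Lower ratios in Yap KO were found for Ebna1bp2, at -0.44 (-0.56 to -0.32), Bysl, at -0.38 (-0.48 to -0.28), and Nop58, at -0.30 (-0.38 to -0.22). Between replicate cultures the spread of such differences is not known.

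Related genes outside the 49 were then set beside them, and their counts are to be read against the 32.1% of all tested genes called higher and the 32.5% called lower. Among 11 other genes of RNA polymerase I and its factors, 6 rose and 3 fell, with a median of 0.47. The polymerase subunits Cd3eap, Polr1e and Twistnb rose by 0.88 ± 0.15, 0.81 ± 0.14 and 0.67 ± 0.13, and the subunit Znrd1 was not called, at -0.06 ± 0.19. Taf1b and Taf1c, SL1 subunits like Taf1d, fell by 0.93 ± 0.14 and 0.45 ± 0.13, and Baz2a, which silences ribosomal DNA repeats, fell by 2.16 ± 0.16. Baz2a had 45.1 and 32.3 CPM in stimulated Yap KO and WT cells, against 164 and 179 CPM in unstimulated Yap KO and WT cells. All 5 subunits shared by the RNA polymerases rose (median 1.48), led by Polr2f at 2.44 ± 0.14, Polr2h at 1.65 ± 0.14 and Polr2k at 1.48 ± 0.18.

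RNA polymerase III, which makes 5S ribosomal RNA and transfer RNA, had 10 of 22 genes up and 5 down, with a median of 0.24, beside a median of -0.05 over all tested genes. Its interchangeable subunits moved in opposite directions. Polr3g had 52.2 and 40.4 CPM in stimulated Yap KO and WT cells, against 18.4 and 16.5 CPM in unstimulated Yap KO and WT cells, a rise of 1.40 ± 0.16. Its paralog Polr3gl had 3.31 and 5.38 CPM in stimulated Yap KO and WT cells, against 12.4 and 15.6 CPM in unstimulated Yap KO and WT cells, and its coefficient was -1.71 ± 0.24. Maf1, the repressor of RNA polymerase III, fell by 1.88 ± 0.13, with 77.7 and 88.4 CPM in stimulated Yap KO and WT cells against 311 and 301 CPM in unstimulated Yap KO and WT cells. Brf1, a subunit of its initiation factor, fell by 1.79 ± 0.13, while Polr3d rose by 1.38 ± 0.14.

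Further assembly factors mostly rose. Of 44 other small subunit factors 40 rose and none fell (median 0.89), led by Pno1 at 2.25 ± 0.16, Nol10 at 1.93 ± 0.16 and Utp4 at 1.73 ± 0.13. Of 45 other large subunit factors 32 rose and 2 fell (median 0.85). Rpf2, at 2.20 ± 0.13, Brix1, at 1.76 ± 0.12, and Eif6, at 1.66 ± 0.13, led the rise, and the 2 that fell were the large ATPase gene Mdn1, by 0.57 ± 0.17, and Nop53, by 0.53 ± 0.13. Of 22 tested genes of snoRNP assembly and the RNA exosome, the nuclease that trims the precursor, 21 rose and none fell (median 1.54), led by the ATPases Ruvbl2 at 2.79 ± 0.15 and Ruvbl1 at 2.26 ± 0.14 and by Exosc9 at 2.21 ± 0.13. Exosc5 was the one not called, at -0.15 ± 0.17.

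Ribosomal protein genes were counted by compartment, and the difference between the compartments was not tested. Of 83 genes for cytosolic ribosomal proteins 32 rose, a share not far above the 32.1% of all tested genes. Only 7 of the 83 fell, where 32.5% of all tested genes fell, and the median was 0.21. Of 77 for mitochondrial ribosomal proteins 69 rose and 1 fell, with a median of 1.19. Among the cytosolic ones, Rps27l rose by 3.09 ± 0.14, Rpl7l1 by 1.51 ± 0.14 and Rpl13a by 1.41 ± 0.19, and Rps27 fell by 2.03 ± 0.14 and Rps19 by 0.54 ± 0.12. Rps27l, the paralog of Rps27, thus moved the opposite way. Mrps6 at 3.08 ± 0.16, Mrps22 at 2.55 ± 0.16 and Mrpl1 at 2.46 ± 0.15 led the mitochondrial ones, and Mrpl24 fell by 0.58 ± 0.14. Cytosolic ribosomal protein genes took 3.55% of reads in genes in stimulated Yap KO and 3.36% in stimulated WT cells, against 3.36% in unstimulated Yap KO and 3.14% in unstimulated WT cells. Many of them have processed pseudogenes, and reads aligned in more than 1 place were not counted, so single genes of this list are uncertain. Differences between these lists and the 49 members were not tested.

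**Figure D5:**
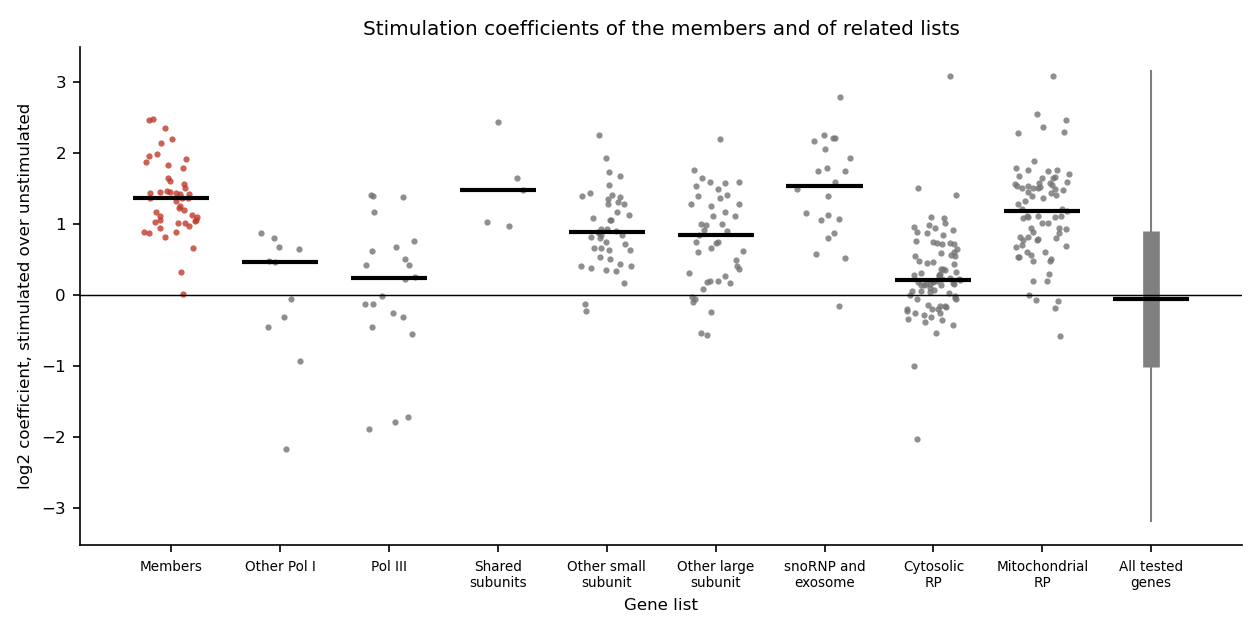
Log2 coefficient of stimulated over unstimulated cells (vertical axis) for the 48 tested members (red) and for related lists (grey), 1 point per gene, with black bars at list medians. At the right, all 15394 tested genes are drawn as their 5th to 95th percentile (thin line, -3.20 to 3.18) and their middle 25th to 75th percentile (thick bar). The members' median of 1.37 lies near that of mitochondrial ribosomal proteins at 1.19, and cytosolic ribosomal proteins centre on 0.21.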

How the data were processed

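RNA of 4 mouse libraries was counted per gene. The authors deposited raw read counts per Ensembl gene identifier, with 5 summary entries of the kind htseq-count writes; the genome build was mm9, per the submitters' processing notes, and no aligner, annotation or strand setting is given in the sources used here. Reads outside annotated genes made up 48.3 to 52.5% of all entries and reads aligned in more than 1 place 3.48 to 4.31%. The summary entries were left out.

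Symbols, exon lengths and coordinates came from GENCODE M21 (GRCm38), matched by identifier (50376 of 50686). Members, lists and the rule for named genes (extremes of each role and list, of which some are not reported here) were chosen with earlier results of these data known. Genes were kept with filterByExpr by state (minimum count 10), which left 15394, and scaled by TMM. edgeR 4.0.16 fitted genotype and state as additive terms (1 residual degree of freedom); DESeq2 1.42.0 was an alternative. Log2 ratios of library pairs used a prior count of 2. SE is the coefficient divided by the root of its F. Alternatives covered scaling, filter, test, design, prior count, exon length and left-out libraries.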

Additional observations from a re-analysis of the deposited data

Results flagged for a closer look

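Nop58, Noc4l and Ubtf had differences of opposite sign that were looked at again, and none of these differences was tested. Nop58 had a log2 ratio, Yap KO over WT, of -0.14 in stimulated and 0.16 in unstimulated cells, with counting intervals on opposite sides of 0. Noc4l had -0.10 in stimulated and 0.19 in unstimulated cells, again with intervals on opposite sides of 0. Ubtf had a log2 ratio, stimulated over unstimulated, of 0.087 in Yap KO and -0.063 in WT cells.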

How the results depend on the processing

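No paired analysis was possible because every title carries the number 1, so that no block can be added; the genotype term of the additive fit already pairs the stimulated with the unstimulated library of each source. Members called higher with stimulation numbered 46 or 47 of 48 under the other scalings, the DESeq2 test and state as the only term, and 46 of 49 with no filter, where Wdr74 was tested too; none was called lower. Leaving out 1 library at a time, with state as the only term and the lone library assumed to vary like the others, gave 46 in each case, with 3858 to 4119 of all genes higher and 3721 to 3935 lower. Without genes opposite another gene, fewer were tested: 26 of 28 members were higher, and over all genes 3111 rose, 3163 fell, and 69 were higher and 41 lower in Yap KO. Without a filter on low counts 1 member, Utp20, was called higher in Yap KO, as were 410 genes in all, with 261 lower; the cause was not tested. Scaled to total reads only, the members' stimulation medians became 1.29 in Yap KO and 1.28 in WT, and the coefficient of Ubtf turned to -0.072 (adjusted p = 0.623). With DESeq2 size factors, total reads only or upper-quartile factors, chosen after seeing the data, 1 member, Utp20, had a stimulation ratio at least 1.5-fold higher in Yap KO, against 0 with TMM. Upper-quartile scaling shifted the median of all genes by -0.11 in Yap KO and -0.12 in WT. With the length of the longest transcript in place of merged exons, members' TPM changed by 0.777 to 2.09 times and kept a rank correlation of 0.94.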

Other observations

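In the MYC network, Myc had 441 and 450 CPM in stimulated Yap KO and WT cells, against 142 and 139 CPM in unstimulated Yap KO and WT cells, a rise of 1.66 ± 0.12 (edgeR adjusted p = 2.20e-06). Mxd4 and Mxd1, which compete with MYC for their shared partner MAX, fell by 3.84 ± 0.22 and 2.15 ± 0.24, and Mxd3, of the same family, rose by 1.68 ± 0.18. In all 2 of 10 tested genes of the list rose and 4 fell, where 32.1% of all tested genes rose and 32.5% fell.

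Loci at which reads of ribosomal RNA are known to collect did not follow the members. Lars2 had 16213 and 27060 CPM in stimulated Yap KO and WT cells, against 16288 and 20608 CPM in unstimulated Yap KO and WT cells. Gm26917 had 4130 and 3251 CPM in stimulated Yap KO and WT cells, against 6379 and 5107 CPM in unstimulated Yap KO and WT cells. Gm42418 had 2913 and 1155 CPM in stimulated Yap KO and WT cells, against 3367 and 3507 CPM in unstimulated Yap KO and WT cells. Reads aligned in more than 1 place were not counted, so these values do not measure ribosomal RNA.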
